A study of Mus musculus with 30 samples.

Results

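Skin was compared with stomach on 4 of the 30 two-colour microarrays of a survey of 15 adult mouse tissues, with 2 arrays of each organ taken by their sample labels. The mice were C57BL/6 males, labelled as 28 weeks old, and the labels name no treatment, mutation or transgene. The age stated in the methods of the study is not the same as that of the labels. Replicates of these organs came from different animals by the series text. Each sample was a piece of whole organ, rinsed and frozen before its total RNA was taken, and neither the site of the skin nor the part of the stomach is given in the sources used here. Cy3 carried the tissue RNA. Cy5 carried a common reference, a pool of RNA from cultured mouse cell lines, skin and muscle myoblast lines among them, mixed with RNA of embryonic stem cells. Each value below is log2(Cy3/Cy5), called a log ratio: it is positive where the tissue gave more signal than the reference, and a difference between tissues is skin minus stomach unless stated otherwise.

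The epidermis is a stratified squamous epithelium, whose basal cells divide and whose upper cells fill with keratin, build a cornified envelope of cross-linked small proteins and release barrier lipids. The mouse stomach is lined in its upper part, the forestomach, by a keratinised epithelium of the same general build, and in its lower part by a glandular epithelium of one cell layer that secretes acid, mucus and proteases. Skin carries in addition hair follicles, sebaceous glands, a collagen-rich dermis and, in the mouse, a thin sheet of striated muscle under the dermis. The stomach wall holds layers of smooth muscle.

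Only part of the labels could be checked against cell type markers, since names were on hand for 24.0% of the probes tested. Of 10 skin markers 3 were tested. Keratin 10 (Krt10) read 5.54 and 5.34 and the late cornified envelope gene Lce1a2 5.19 and 5.16 on the skin arrays, but both genes were high on the stomach arrays too, at 4.64 and 4.66 and at 4.74 and 4.77. Kprp, a keratinocyte proline-rich protein, read 1.02 and 0.39 in skin and 0.34 and 0.41 in stomach, and its highest array among the other tissues, at 1.63, was of heart. Of 12 stomach markers 1 was tested: Ctse, the gastric aspartic protease cathepsin E, read 3.30 and 3.31 in stomach and -0.06 and -0.06 in skin. Both skin arrays lay on slide 7 and both stomach arrays on slide 8, scanned on the same day, so that for these 4 arrays slide and organ cannot be told apart except through small intestine, which had 1 array on each of the 2 slides. Values given below with slide as a fixed block take their slide correction for this pair from those 2 small intestine arrays.

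Across 21019 probes whose Cy3 stood above background on the paired arrays of some tissue, 4075 probes (19.4%) differed between skin and stomach, by which is meant a log2 difference of at least 1 with an adjusted p under 0.05 in the limma fit. They divided almost evenly, with 2056 (9.78%) higher in skin and 2019 (9.61%) higher in stomach. When each array was only centred on its median, without the loess curve, the same rule gave 1162 and 2231. The median difference over all probes was 0.03, and the 2 arrays of an organ had a median SD of 0.13 in skin and 0.08 in stomach. The arrays of the pair did not overlap at 74.6% of all probes, so that a gap between the 4 points of a gene is by itself common here. As tissue pieces were measured, fewer cells of a type and less RNA per cell cannot be told apart in any of these differences.

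Compared with the average of the other 13 tissues, 781 probes (3.72%) were enriched in skin, by at least log2 2 with an adjusted p under 0.05, and 837 (3.98%) in stomach. Probes enriched in both numbered 221 (1.05%), which is 28.3% of the skin list and 26.4% of the stomach list. The 2 lists were set against the same 26 arrays, so this overlap is a count and not a test. Probes of skin only, enriched in skin, not in stomach, and higher in skin than in stomach by at least log2 2, numbered 390 (1.86%). Their counterparts in stomach numbered 496 (2.36%). A symbol was on hand for 36, 49 and 87 probes of these sets. Of the 221 shared probes, 49 were called higher in skin, 12 higher in stomach and 160 neither way, and their median difference was 0.44. In 80 of the 221, each of the 4 arrays stood above every array of the 13 other tissues. Of the 390 probes of skin only, both skin arrays did so in 154. The name thus sets skin against stomach and the average of the 13 tissues, not against each of them.

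**Figure D1:**
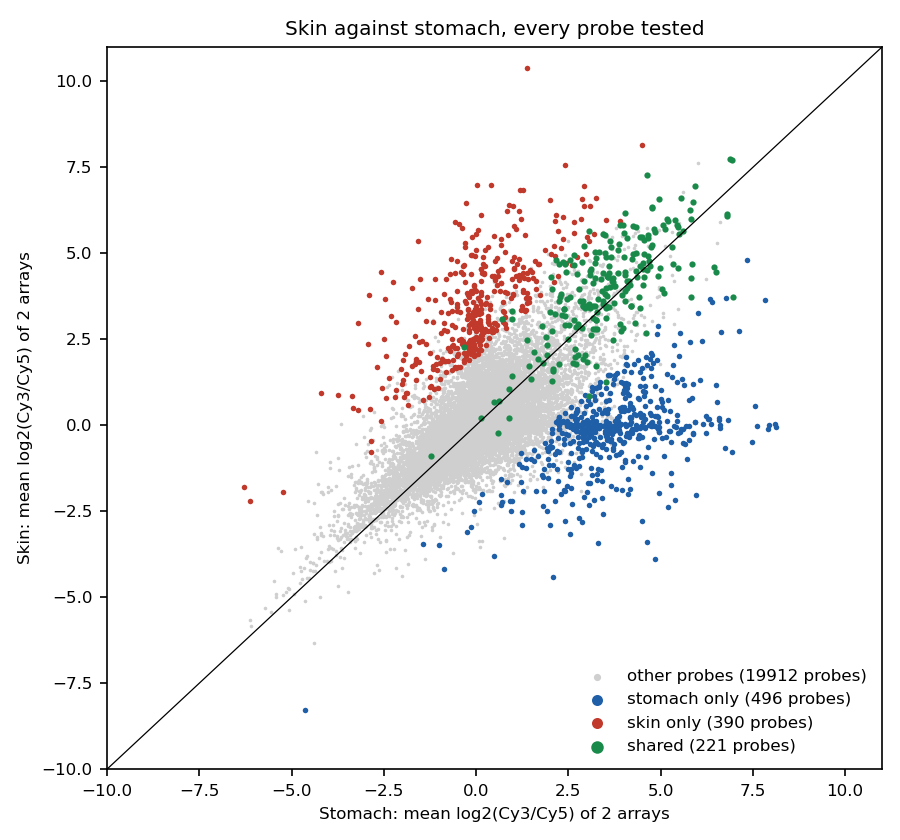
Mean log2(Cy3/Cy5) of the 2 skin arrays (vertical axis) against that of the 2 stomach arrays (horizontal axis) for each of 21019 probes, with a line where both are equal. The 221 shared probes (green) lie along the upper end of the line, the 390 probes of skin only (red) lie above it and the 496 of stomach only (blue) below it, as their definitions require.

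As a whole, skin was not the nearest organ to stomach. Over all probes the log ratios of a skin and a stomach array correlated at r = 0.611 ± 0.019 (SD over 4 pairs of arrays), against 0.947 between the skin arrays and 0.982 between the stomach arrays. By these ratios skin correlated most with bladder (0.651), and stomach came next. Stomach correlated most with bladder (0.691), large intestine (0.675) and small intestine (0.672), and skin came after these 3. The order moved with the normalisation. Under median centring bone came first for skin (0.763) and bladder (0.720) ranked below stomach, while stomach itself correlated most with small intestine (0.785), with skin (0.754) above bladder (0.750). By Cy3 alone bone (0.861) stood between bladder and stomach (0.857) for skin, and for stomach skin stood just above small intestine (0.855). These r are across probes, which are not independent replicates, and all arrays share the Cy5 reference. Among the tissues outside the pair, the one highest for a shared probe was eyes in 60 of the 221 probes, large intestine in 39 and bladder in 32. For skin only it was muscle in 69 of 390, bone in 49 and heart in 42.

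The reference channel also moved with these sets. Over the 221 shared probes the Cy5 signal was 0.67 (skin) and 0.60 (stomach) above its mean over the other tissues on a log2 scale, while over all probes it was 0.08 and 0.07 above it. For Krt10, Cy5 read 14000 and 13300 on the skin arrays and 14100 and 15500 on the stomach arrays, with a median of 1320 on the other arrays, although the reference RNA was common to all. What raised Cy5 where Cy3 was bright was not tested. The ratio and Cy3 alone can therefore part: for Krt10 skin minus stomach was 0.79 by ratio and 0.32 ± 0.22 by Cy3 alone. Both readings are given below for several genes whose call changed between them. Cy3 and Cy5 intensities are spot signals as deposited, background included, whereas a difference by Cy3 alone is on a log2 scale after background correction and quantile normalisation, so both need not match in size.

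Keratin 10, the type I keratin of the layers above the basal one, was enriched in both organs. Its Cy3 intensity was 75700 and 76600 on the skin arrays and 72900 and 89800 on the stomach arrays, with a median of 593 over the other tissues. Its log ratio exceeded the mean of the 13 other tissues by 5.03 in skin (adjusted p = 4.14e-15) and by 4.24 in stomach (adjusted p = 5.08e-14). The highest array elsewhere, of brain cortex, read 1.53. Skin was above stomach by 0.79 ± 0.20 (SE), 1.73-fold, which passed the test on its p (adjusted p = 0.00533) but not the threshold of log2 1. It was the 1 keratin of 19 listed whose probe had a name here.

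The epidermal differentiation complex is a cluster on chromosome 3 that encodes envelope precursors. Of the 63 listed genes of envelope and complex 4 had a named probe. Of these 4, Lce1a2, Lce6a and Sprr1a were enriched in both organs and Kprp, given above, in neither. None was called higher in skin, and 1, Sprr1a, was called higher in stomach. Over all probes 9.78% and 9.61% were called and 1.05% were enriched in both organs. The list's median difference was 0.37, against 0.03 over all probes, and turned to -0.08 under median centring. Lce1a2 exceeded the 13 tissues by 4.70 in skin and 4.27 in stomach and did not differ between the organs beyond the error (0.42, 95% interval -0.00 to 0.85, adjusted p = 0.131). By Cy3 alone skin was higher by 1.04 ± 0.26 (adjusted p = 0.00494). Before normalisation the intensities, 42700 and 45400 in skin and 25800 and 45100 in stomach, overlapped. Lce6a, of the same family, read 3.46 and 3.45 in skin and 2.68 and 3.13 in stomach, a difference of 0.55 (-0.15 to 1.26, adjusted p = 0.243). Its Cy3 difference was 1.27 ± 0.21 (adjusted p = 0.000137).

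Sprr1a, a small proline-rich envelope protein, ran the other way. It read 1.57 and 2.13 in skin and 2.97 and 3.02 in stomach, so stomach was higher on both arrays. The difference was -1.15 ± 0.39 (adjusted p = 0.033), and the Cy3 intensities were 1000 and 1820 against 7620 and 10500. The call was lost without skin replicate 1 (-0.87), without stomach replicate 1 (-1.18, adjusted p = 0.106) or 2 (-1.13, adjusted p = 0.132), with slide as a fixed (-0.33, adjusted p = 0.488) or random block (-0.87, adjusted p = 0.115) and with a background offset of 10 (-1.12, adjusted p = 0.081). Bladder, with 3.26 on its higher array, read above both organs.

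A further pair of genes stood at the head of the shared set. Fam25c had the largest enrichment of any named shared gene, 7.06 above the 13 tissues in skin and 5.73 in stomach. It read 5.59 and 5.28 in skin and 4.04 and 4.17 in stomach, with 4.31 on the higher bladder array and a median of -3.16 over the other tissues. Skin was higher by 1.33 ± 0.40 (adjusted p = 0.0165), a call that was lost without skin replicate 1 (adjusted p = 0.118) or either stomach array (0.0862 and 0.0625) and under median centring (0.45). Cysrt1, a cysteine-rich protein of the upper epidermal layers, read 5.82 and 5.49 in skin and 5.68 and 5.54 in stomach. The organs overlapped, with a difference of 0.04 (-0.46 to 0.55). The higher eye array, at 4.96, was the highest elsewhere.

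The promoters of these genes are shown because their transcripts were high in both organs. They are RefSeq sequences of build GRCm38.p6, from 250 bases before to 50 bases after the annotated start, printed from 5′ to 3′ on the gene's strand. Capitals mark the TATA box letters TATAAA and the AP-1 letters TGANTCA, searched on both strands, which do not overlap each other here. TATAAA occurred in 13.6% and TGANTCA in 7.81% of 32851 promoters of this length. By gene, 15.7% of all genes in the promoter table had TATAAA and 8.97% had TGANTCA at one start or more. Of the 28 shared genes with a promoter entry, 9 held the first (32.1%) and 10 the second (35.7%). These are counts of letters in windows and not binding sites.
Krt10 (chr11:99389315-99389614, minus strand): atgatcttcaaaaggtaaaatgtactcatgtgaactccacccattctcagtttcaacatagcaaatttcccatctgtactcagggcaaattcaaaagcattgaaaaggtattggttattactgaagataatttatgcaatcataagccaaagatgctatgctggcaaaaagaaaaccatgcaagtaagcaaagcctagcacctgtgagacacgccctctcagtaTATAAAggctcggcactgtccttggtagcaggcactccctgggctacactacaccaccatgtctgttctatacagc
Fam25c (chr14:34355344-34355643, minus strand): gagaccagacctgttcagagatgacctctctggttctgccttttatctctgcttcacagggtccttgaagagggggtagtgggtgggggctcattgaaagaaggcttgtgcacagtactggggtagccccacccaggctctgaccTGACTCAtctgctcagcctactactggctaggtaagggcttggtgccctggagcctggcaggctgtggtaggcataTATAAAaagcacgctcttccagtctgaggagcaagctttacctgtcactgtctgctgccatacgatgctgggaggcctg
Sprr1a (chr3:92485832-92486131, minus strand): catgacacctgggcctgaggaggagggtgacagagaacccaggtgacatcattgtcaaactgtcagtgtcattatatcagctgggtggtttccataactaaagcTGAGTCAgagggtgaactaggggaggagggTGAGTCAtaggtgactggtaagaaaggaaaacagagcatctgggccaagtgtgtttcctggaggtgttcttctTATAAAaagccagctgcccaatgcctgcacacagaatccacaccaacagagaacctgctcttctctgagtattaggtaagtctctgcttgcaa
Counted from the annotated start, TATAAA began at -26 in Krt10, -29 in Fam25c and -43 in Sprr1a. TGANTCA was present in Fam25c and Sprr1a and not in this window of Krt10.

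**Figure D2:**
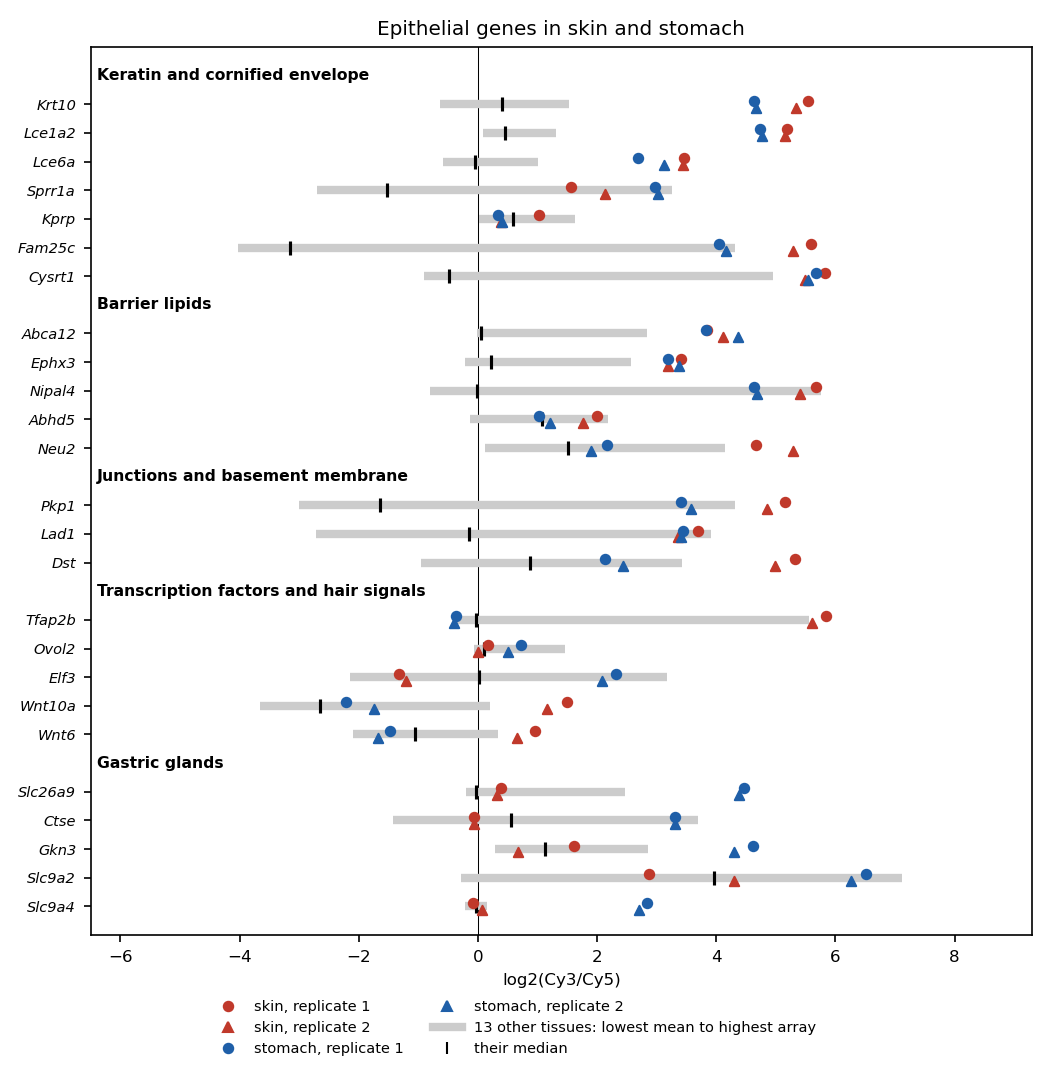
Log2(Cy3/Cy5) of epithelial genes on the 2 skin arrays (red) and the 2 stomach arrays (blue), with grey bars from the lowest tissue mean to the highest array of the 13 other tissues and a tick at their median. Krt10, Lce1a2, Cysrt1 and Abca12 stand above the grey bars in both organs, Dst, Wnt10a and Wnt6 in skin, and Slc26a9, Gkn3 and Slc9a4 in stomach.

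Barrier lipid genes were measured for 4 of 32 listed genes, of which 2 were shared and 1 was called, in favour of skin, against 1.05% shared and 9.78% called higher in skin over all probes. Abca12, the transporter that loads lipids into the lamellar granules of keratinocytes, read 3.85 and 4.11 in skin and 3.82 and 4.37 in stomach. The ranges overlapped, and the difference was -0.11 (-0.92 to 0.70). Ephx3, an epoxide hydrolase of the epidermal lipid pathway, read 3.41 and 3.19 against 3.19 and 3.37, a difference of 0.03 (-0.48 to 0.54). Nipal4, a gene of inherited ichthyosis that was outside the list, read 5.67 and 5.41 against 4.63 and 4.68. Both skin arrays were higher, by 0.89 (-0.01 to 1.78, adjusted p = 0.13), and bladder reached 5.75. With slide as a fixed block (1.42, adjusted p = 0.00285) and by Cy3 alone (1.15, adjusted p = 0.012) Nipal4 was called higher in skin. Neu2, a sialidase, belonged to skin only: it read 4.66 and 5.28 in skin and 2.17 and 1.89 in stomach (2.94 ± 0.39, adjusted p = 1.31e-05), with 4.15 in muscle.

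Of 4 junction genes tested, 2 were called higher in skin, against 9.78% of all probes, and none in stomach. The median difference was 0.80, but 0.14 with 1 call under median centring and 1.51 by Cy3 alone. Pkp1, a plakophilin of the desmosomal plaque, read 5.15 and 4.85 in skin and 3.41 and 3.58 in stomach. Both organs exceeded the 13 tissues (by 5.58 and 4.08), and skin exceeded stomach by 1.5 ± 0.38 (adjusted p = 0.00551). This call held in 13 of 18 alternatives. It was lost without skin replicate 1 (1.35), under median centring (0.64) and with slide as a random block (1.06, adjusted p = 0.0789). The processed signals (1.46, adjusted p = 0.0696) and the authors' value table (1.46, adjusted p = 0.0673) lost it too. Dst, whose epithelial form anchors keratin to the hemidesmosome, read 5.33 and 4.98 in skin and 2.14 and 2.44 in stomach. It was higher in skin by 2.86 ± 0.33, 7.28-fold (adjusted p = 1.76e-06), and counted as skin only. Lad1, ladinin of the basement membrane zone, read 3.70 and 3.36 against 3.45 and 3.41, with 3.91 on the highest array of another tissue.

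The other leading named genes of the shared set belonged to none of the epithelial lists. Macc1, a regulator of growth factor signalling, read 4.37 and 4.20 in skin and 5.86 and 5.80 in stomach. The difference was -1.55 with an adjusted p of 0.0603 over all probes, and it was called by Cy3 alone (-2.02, adjusted p = 0.0106) and with slide as a fixed block (-1.66, adjusted p = 0.00991). Pinlyp, an inhibitor of phospholipase A2, read 3.19 and 5.22 in skin, on either side of the 3.97 and 4.23 of stomach, and its highest array elsewhere read 0.17. Its difference was 0.11 with both skin arrays, 1.12 without the lower one and -0.91 without the higher one, values that each rest on 1 skin array. H60c, a ligand of an activating receptor of lymphocytes, read 3.60 and 3.19 against 2.67 and 3.24, and Nccrp1 read 5.08 and 4.73 against 4.07 and 3.97. Neither was called. Sdr16c6, a short-chain dehydrogenase, read 4.36 and 4.01 against 2.78 and 3.07 and was called higher in skin by 1.26 ± 0.14, a difference of -0.03 on the processed signals. Wfdc21, a small secreted WAP-domain protein, read 6.29 and 6.05 against 3.84 and 4.25 (2.13 ± 0.33), with 7.34 in liver. Its call was lost on the processed signals (0.91, adjusted p = 0.401). Both of these genes were shared but outside the rule for named genes, and were chosen after their values were seen. The clone 2310050C09Rik of chromosome 3 read 4.47 and 4.14 against 3.60 and 3.57, with 0.25 on the highest array of any other tissue. By ratio it was not called (0.73 ± 0.15), and by Cy3 alone it was higher in skin by 2.53 ± 0.21 (adjusted p = 3.81e-08). Teddm3 showed how far the ratio and the Cy3 signal can part: its log ratios were close (3.84 and 3.68 against 3.59 and 3.48), its Cy3 intensity was 2810 and 2400 in skin and 12100 and 15700 in stomach, and its Cy5 intensity rose alongside, to 3650 and 4720 on the stomach arrays against 902 and 715 on those of skin. By Cy3 alone Teddm3 was higher in stomach by 1.84 ± 0.16 (adjusted p = 3.8e-08).

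The clade B serpins of chromosome 1 form one row of 12 protein-coding genes with no other between them, in the order Serpinb5, 12, 13, 3a, 3d, 3b, 3c, 11, 7, 2, 10 and 8. They encode protease inhibitors that act mostly inside cells, and several are known from keratinocytes. Of these, 11 had a tested probe, and Serpinb3d did not pass the filter on background. By ratio 1 was called higher in skin and 4 higher in stomach, and 5 were enriched in skin and 8 in stomach against the 13 tissues, with all 5 of the former among the 8. Over all probes 9.78% and 9.61% were called and 3.72% and 3.98% enriched, so that the 1 call for skin among 11 is near the share of all probes. By Cy3 alone, with scan day as a random block and on the 4 arrays alone, 3 of the 11 were called higher in skin and 4 in stomach. On the processed signals 0 and 3 were called. The median difference was -0.11 and turned to 0.12 by Cy3 alone and to 0.15 on the processed signals.

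Serpinb3c gave the widest difference of the row by ratio, though not by Cy3 alone. It read 0.89 and 0.47 in skin and 6.50 and 6.53 in stomach, and eyes came next with 3.38 on the higher array. Stomach was higher by 5.84 ± 0.14 on the log2 scale, 57.2-fold (adjusted p = 1.08e-15), and Cy3 read 153 and 113 against 6220 and 7530. Serpinb13, also called headpin, read 0.88 and 1.90 in skin and 5.03 and 5.58 in stomach, a difference of -3.92 ± 0.22. No array of another tissue exceeded 0.15. Serpinb3a read 1.17 and 1.1 against 4.51 and 4.65 (-3.45 ± 0.12), while Serpinb3b beside it read 0.93 and 1.05 against 1.15 and 1.31 (-0.24, -0.50 to 0.03, adjusted p = 0.176).

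At Serpinb12 the ratio and Cy3 gave different sizes. Its Cy3 intensity was 285 and 355 in skin and 19300 and 29600 in stomach. Cy5 was 96.1 and 103 on the skin arrays and 2920 and 4240 on the stomach arrays, and the log ratios were 2.53 and 2.81 against 4.61 and 4.62. The difference in ratio was -1.95 ± 0.40 (adjusted p = 0.000951), that in Cy3 alone -6.07 ± 0.30. On the scanner software's processed signals and in the authors' value table the difference in ratio was 0.15 (adjusted p = 0.877 and 0.913), on the other side of 0. With a background offset of 10 the call was lost as well (-1.25, adjusted p = 0.0755).

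Other members of the row were brighter in skin. Serpinb7, known for an inherited keratoderma, read 4.75 and 4.55 in skin and 2.61 and 2.72 in stomach, with 0.41 as the highest array elsewhere. It was higher in skin by 1.99 ± 0.16 (adjusted p = 1.55e-08), with Cy3 at 2420 and 2090 against 274 and 353, although the processed signals gave 0.17. Serpinb5, maspin, read 4.37 and 4.19 against 3.21 and 3.24, a ratio difference of 1.06 (0.08 to 2.03) that missed the threshold (adjusted p = 0.0963). With scan day as a random block (adjusted p = 0.0106) and on the 4 arrays alone (adjusted p = 0.00346) Serpinb5 was called at the same difference. Its Cy3 was 4160 and 4010 against 659 and 787, higher in skin by 3.17 ± 0.43 (adjusted p = 1.53e-05). Serpinb2, the plasminogen activator inhibitor of type 2, read 5.79 and 5.76 against 4.03 and 4.61 (1.46, 0.18 to 2.74, adjusted p = 0.0807). It was called with slide as a fixed block (1.71, adjusted p = 0.000712) and by Cy3 alone (1.63, adjusted p = 0.00896).

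Serpinb11 was shared and not called either way, at 4.79 and 4.24 in skin and 4.57 and 4.68 in stomach (-0.11, -0.44 to 0.21). The eyes read higher still, up to 5.10. Serpinb8 and Serpinb10 were low in both organs, with no array above 1.54. In the order of the genes, the members higher in stomach by ratio, Serpinb12, 13, 3a and 3c, thus stood together with Serpinb3d and 3b among them, and the call for skin, Serpinb7, lay beyond Serpinb11.

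**Figure D3:**
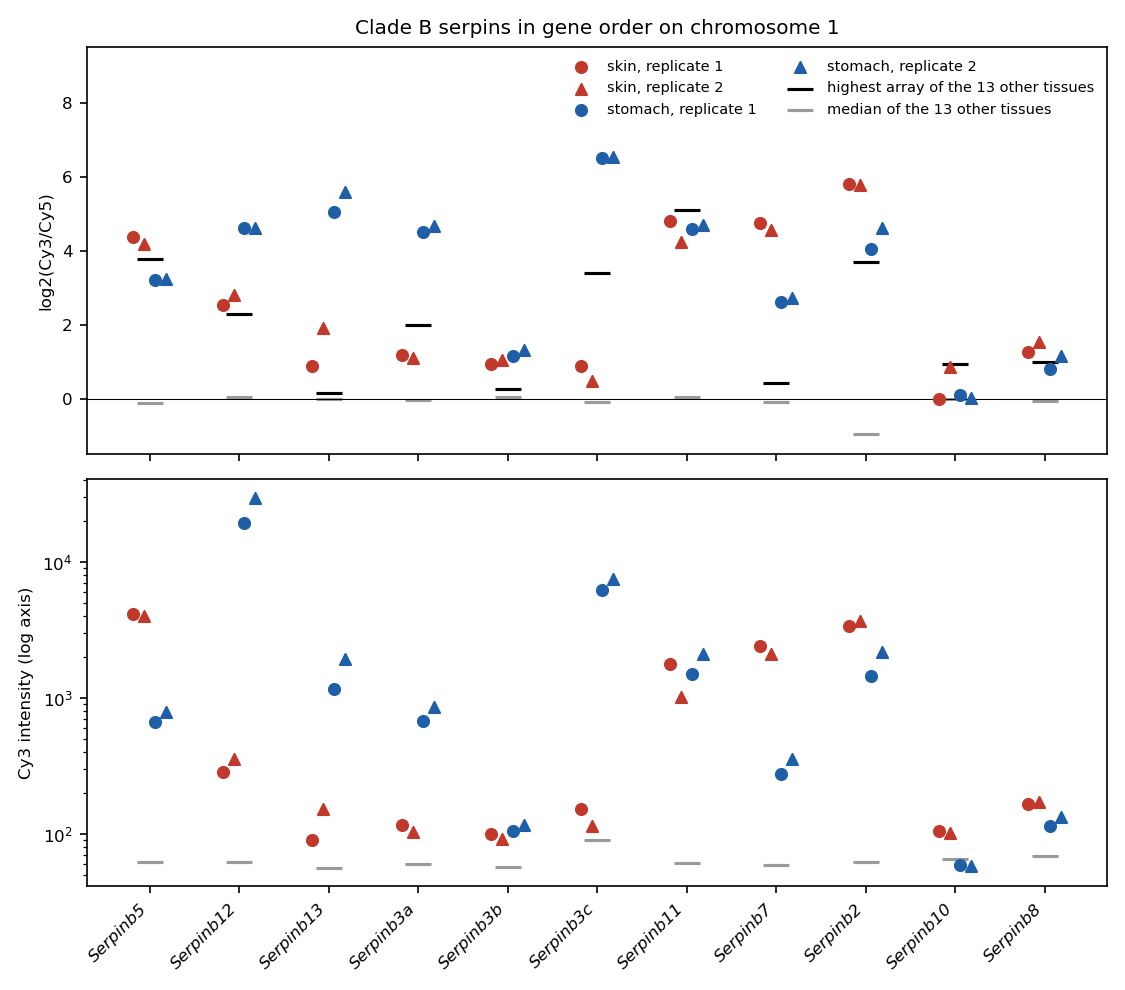
Log2(Cy3/Cy5) (upper panel) and Cy3 intensity on a log axis (lower panel) of 11 clade B serpins in the order of their genes, for the 2 skin arrays (red) and the 2 stomach arrays (blue), with the highest array and the median of the 13 other tissues as bars. Serpinb12, 13, 3a and 3c are higher in stomach and Serpinb5, 7 and 2 brighter in skin, and the gap at Serpinb12 is much wider in Cy3 than in the ratio.

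The promoters of the Serpinb3 genes are shown because windows with nearly the same letters belong to genes with unlike differences between the organs. Aligned without gaps, the windows of Serpinb3b and Serpinb3c matched at 279 of 290 bases (96.2%) and those of Serpinb3a and Serpinb3b at 257 of 276 (93.1%). The 60-base probes of any 2 serpins matched at no more than 26 bases. Capitals mark TATAAA and TGANTCA as before.
Serpinb3a (chr1:107052254-107052553, minus strand): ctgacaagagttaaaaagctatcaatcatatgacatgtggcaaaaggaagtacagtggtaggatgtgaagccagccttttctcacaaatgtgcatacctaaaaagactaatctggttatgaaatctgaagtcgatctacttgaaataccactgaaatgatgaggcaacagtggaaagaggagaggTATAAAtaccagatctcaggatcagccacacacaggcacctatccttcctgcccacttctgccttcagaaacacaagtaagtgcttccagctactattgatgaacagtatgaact
Serpinb3b (chr1:107161065-107161364, minus strand): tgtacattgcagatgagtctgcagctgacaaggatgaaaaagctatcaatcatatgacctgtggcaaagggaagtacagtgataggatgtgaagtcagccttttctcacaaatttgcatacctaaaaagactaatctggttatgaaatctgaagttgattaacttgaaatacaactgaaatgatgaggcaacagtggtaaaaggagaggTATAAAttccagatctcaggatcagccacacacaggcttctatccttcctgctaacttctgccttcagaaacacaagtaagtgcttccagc
Serpinb3c (chr1:107278322-107278621, minus strand): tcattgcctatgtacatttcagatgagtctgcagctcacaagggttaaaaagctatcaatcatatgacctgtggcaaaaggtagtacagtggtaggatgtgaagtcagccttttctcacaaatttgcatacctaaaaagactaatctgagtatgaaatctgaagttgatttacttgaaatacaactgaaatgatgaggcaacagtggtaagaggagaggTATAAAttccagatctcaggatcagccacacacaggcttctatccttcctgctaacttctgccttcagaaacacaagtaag
Serpinb7 (chr1:107422439-107422738, plus strand): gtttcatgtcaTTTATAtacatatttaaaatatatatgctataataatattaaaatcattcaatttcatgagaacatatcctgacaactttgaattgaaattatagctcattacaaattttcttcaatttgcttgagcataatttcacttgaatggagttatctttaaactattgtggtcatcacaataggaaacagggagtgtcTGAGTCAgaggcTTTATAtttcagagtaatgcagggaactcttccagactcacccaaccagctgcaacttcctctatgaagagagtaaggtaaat
Skin minus stomach was -3.45 for Serpinb3a, -0.24 for Serpinb3b, -5.84 for Serpinb3c and 1.99 for Serpinb7. These are differences within each probe, and the levels of the 4 probes are not compared. Serpinb3a, 3b and 3c each held TATAAA and no TGANTCA. The former began at -65, -41 and -31 in that order, and the alignments were made at shifts of -24 and -10 bases, which bring these letters together. Serpinb7 held both motifs, the TATA letters in the reverse direction. Of the 11 serpins with a promoter entry, 7 held TATAAA and 7 TGANTCA at one start or more.

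Of 23 listed regulators of stratified epithelium 3 had a named probe, with 1 call each way, against 9.78% and 9.61% of all probes. Tfap2b, AP-2 beta, read 5.85 and 5.61 in skin and -0.37 and -0.40 in stomach, where its Cy3 was not well above background. Cy3 intensities were 9120 and 7530 in skin and 56.8 and 59.6 in stomach. Skin was at least 20.1-fold higher (adjusted p = 3.96e-05). Such a bound sets the brighter organ against the probe's own or the dimmest signal above background in the other, and is the lowest over the settings fitted. The eyes reached 5.55. Elf3, an ETS factor of epithelia, read -1.32 and -1.20 in skin and 2.32 and 2.08 in stomach (-3.46 ± 0.43, adjusted p = 6e-06), with 3.17 in large intestine. Ovol2 was low in both, at 0.17 and 0.00 against 0.72 and 0.51.

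Of the 7 tested genes of hair follicle and hair shaft, 4 were called higher in skin, against 9.78% of all probes, and none in stomach. With slide as a fixed block 2 were called, and with slide as a random block 3. Wnt10a, a secreted signal of the hair placode and follicle, read 1.5 and 1.16 in skin and -2.22 and -1.74 in stomach (3.31 ± 0.28, 9.91-fold, adjusted p = 4.06e-08). No array of another tissue exceeded 0.20. Wnt6, a related signal, read 0.95 and 0.65 against -1.48 and -1.67 (2.37 ± 0.30, adjusted p = 6.54e-06). Hair keratin-associated proteins, which cross-link the hair shaft, were high on 1 skin array: Krtap1-5 read 0.18 on replicate 1 and 4.10 on replicate 2, and Krtap31-1 read 0.73 and 3.06. Stomach read between -0.22 and 0.11 for both genes, and Krtap1-5 was not well above background there. Their differences of 2.36 (adjusted p = 0.0111) and 1.86 (adjusted p = 0.00192) fell to 0.40 and 0.69 without skin replicate 2, below the threshold of log2 1, and 2 of the 7 genes were then called. Krtap4-13 differed likewise, at -0.10 and 1.27, while Krtap12-1 read 1.40 and 0.79. Another 5 keratin-associated proteins did not pass the filter on background.

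Other genes of skin only had no hair, dermal or muscle role among the lists. Mir205hg, the host transcript of a microRNA of stratified epithelia, read 4.27 and 4.08 in skin and 1.94 and 2.29 in stomach (2.07 ± 0.41), but only 1.88 (adjusted p = 0.0734) on the processed signals. Rab7b, an endosomal GTPase, read 3.66 and 3.39 against 0.21 and 0.05 (3.40 ± 0.33). Il1rl2, the receptor for interleukin 36, read 3.73 and 3.44 against 0.71 and 0.74 (2.86 ± 0.28), and Nlrc5, an activator of MHC class I genes, read 4.14 and 3.59 against 0.57 and 0.97 (3.10 ± 0.41). The clone 2310046K23Rik read 4.49 and 4.38 in skin, 1.40 and 1.36 in stomach and at most 0.21 in any other tissue. Its ratio difference was 3.06 ± 0.13, and 0.63 (adjusted p = 0.385) on the processed signals, although Cy3 was 2980 and 4080 against 138 and 137. Khdc1b, a KH-domain protein, read 5.07 on skin replicate 1 and 1.67 on replicate 2, both above the -1.57 and -1.56 of stomach, and 0.17 was its highest array elsewhere. Fam89a, Urah and Cfap57 differed by 2.15, 3.56 and 3.0, and each had another tissue, eyes, liver and lung, with an array above 4.40. The call of Cfap57 was lost on the processed signals (1.92, adjusted p = 0.114).

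Of 18 connective tissue genes 7 were called higher in skin and 1 in stomach, against 9.78% and 9.61% of all probes. The median difference was 1.06 against 0.03 over all probes, and 0.47 under median centring and 1.64 with slide as a fixed block. Stomach replicate 1 read above replicate 2 in 17 of the 18 genes. The median was 1.4 without stomach replicate 1 and 0.78 without stomach replicate 2. Aebp1, a collagen-binding protein of the matrix, read 0.51 and 0.42 in skin and -2.75 and -2.99 in stomach (3.34 ± 0.26, 10.1-fold). Col3a1, the chain of type III collagen, read 1.78 and 2.04 against -0.22 and -1.02 (2.53 ± 0.61, adjusted p = 0.0037), and its call was lost without stomach replicate 2 (2.13, adjusted p = 0.0562). Igfbp5, Prrx1 and Adamts2 differed by 2.37, 2.36 and 2.35, Twist2 by 1.54 and Angptl2 by 1.19, with the call of Angptl2 lost under median centring (0.81) and by Cy3 alone (0.98). Tnn, tenascin N, was the call for stomach, at 1.14 and 0.64 in skin and 2.99 and 2.91 in stomach (-2.06 ± 0.25). It was lost on the processed signals (-1.64, adjusted p = 0.107), which left no gene of the list called for stomach.

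Skeletal muscle was the list with the most genes called higher in skin, of 17. Of 19 tested, 15 were called higher in skin and none in stomach, 9 counted as skin only, and the median difference was 3.14. The share called higher in skin over all probes was 9.78%. Actn3, the actinin of fast fibres, read 2.33 and 4.98 in skin and -1.78 and -3.14 in stomach, a difference of 6.12 ± 0.63 (adjusted p = 5.09e-07). Mstn, the muscle growth inhibitor myostatin, read 2.92 and 6.62 against 0.66 and 0.36 (4.26 ± 0.72). Myog, a transcription factor of muscle differentiation, read 0.62 and 2.94 against -1.44 and -1.88 (3.44 ± 0.50). Cacna1s, the calcium channel of excitation, read 3.49 and 4.13 against -0.49 and -1.23 (4.67 ± 0.34). Skin replicate 2 was the higher of the skin arrays in 19 of these 19 genes, by a median of 1.20, while over all probes it was higher in 10219 of 21019.

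The normalised Cy3 of the 19 genes, after loess and quantile scaling and on another scale than the spot signals above, summed to 96520 and 314900 on the skin arrays, 9037 and 5067 on those of stomach, and 1088000 on the highest array of another tissue, of muscle. Without skin replicate 2, 12 of the 19 genes were called and the median was 2.28. Without stomach replicate 2 (median 2.07) and under median centring (1.87) 13 were called. Tnni1 and Klhl30, whose differences were 2.23 and 1.41, gave 0.96 and 0.71 without skin replicate 2. Prkag3, not well above background in stomach, then gave 0.69, and all of these lie below the threshold of log2 1. Over the 18 alternatives Tnni1 kept its call in 10, and Klhl30 and Prkag3 in 15 each. Within stomach, replicate 1 was above replicate 2 in 16 of the 19, as at Actn2 (2.72 and 0.46, against 4.78 and 4.79 in skin) and Myl1 (1.96 and -0.02, against 4.16 and 4.33). Over all probes, the skin arrays differed by log2 2 or more at 81 probes with replicate 2 higher and at 11 with replicate 1 higher. Of the 390 probes of skin only, 34 and 4 did so. How much muscle each piece of skin held was not tested. Muscle replicate 2 lay on slide 7 beside those of skin, and with slide as a fixed block 14 of the 19 genes were called, with a median of 3.0. Outside the list, the 15 genes named for a large difference in favour of skin also held Rbfox1, a splicing factor of muscle and brain (5.67 and 6.80 against 1.35 and 0.35), Tmem182 (5.11 and 5.38 against 1.51 and -0.17), Cavin4 (2.36 and 3.68 against -0.90 and -1.84) and Adssl1, the muscle form of an enzyme of AMP synthesis (3.78 and 4.67 against 0.58 and 0.44). Myoc and 5430431A17Rik differed by 3.52 and 4.53, and their higher muscle arrays, at 3.85 and 4.52, read above both skin arrays.

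**Figure D4:**
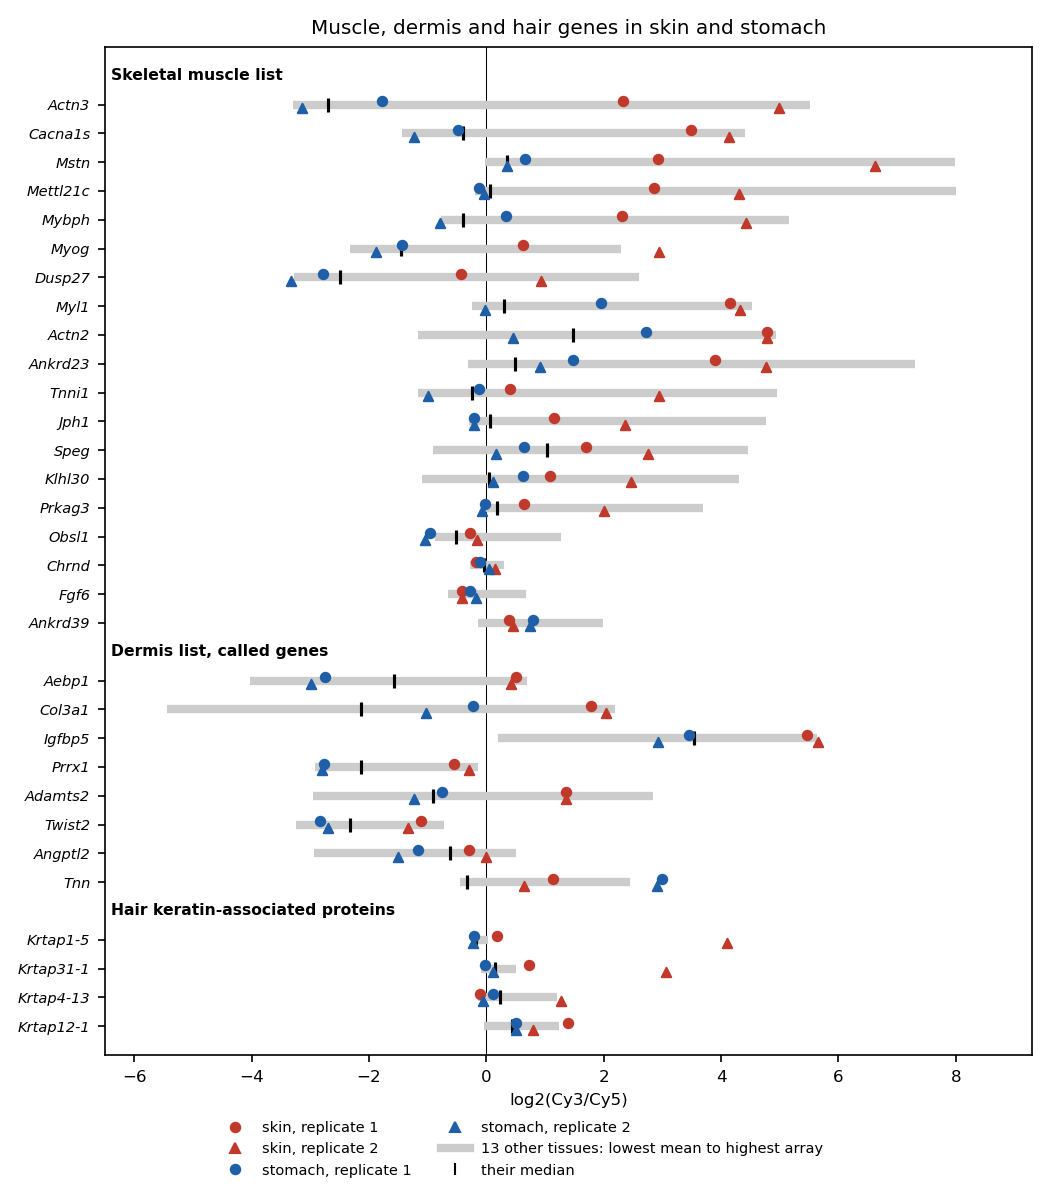
Log2(Cy3/Cy5) of the 19 tested skeletal muscle genes, the 8 called genes of the dermis list and 4 hair keratin-associated proteins on the 2 skin arrays (red; circle for replicate 1, triangle for replicate 2) and the 2 stomach arrays (blue), with the other tissues in grey. The muscle genes read higher on skin replicate 2 than on replicate 1, and the dermis genes read nearly alike on both.

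On the stomach side the 5 tested gastric gland genes were each called higher in stomach, against 9.61% of all probes, with a median of -3.31. Slc26a9, an anion transporter of gastric surface cells, read 4.47 and 4.39 in stomach and 0.39 and 0.32 in skin (-4.08 ± 0.20, adjusted p = 1.5e-11). Gkn3, a gastrokine of mucous cells, read 4.62 and 4.29 against 1.61 and 0.67, with Cy3 at 38000 and 19900 against 274 and 153. Slc9a4, a sodium-proton exchanger of parietal cells, read 2.84 and 2.71 against -0.09 and 0.06, at least 3.8-fold higher in stomach. Slc9a2 read 6.51 and 6.27 in stomach and 2.87 and 4.30 in skin (-2.80 ± 0.91, adjusted p = 0.0252), a call that held in 12 of 18 alternatives. It was lost without skin replicate 1 (-2.09) or either stomach array (-2.69 and -2.92) and on the processed signals (-2.04). The authors' value table (-2.04, adjusted p = 0.0613) and a background offset of 10 (-2.48, adjusted p = 0.0523) lost it too.

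Of the 11 tested genes of simple columnar epithelium 4 were called higher in stomach, against 9.61% of all probes, and none in skin, with a median of -0.61 against 0.03 over all probes. On the processed signals 6 were called with a median of -2.68, with a background offset of 10 also 6 with -1.37, and on the 4 arrays alone 1 was called for skin. Vil1, villin of the brush border, read 4.83 and 4.39 in stomach and -0.95 and -0.90 in skin, at least 24-fold higher in stomach. Ihh, a hedgehog signal of gut epithelium, and Tm4sf4 differed by -2.74 and -2.32. Rab17 differed by -2.66, and its call was lost without skin replicate 2 (-2.33, adjusted p = 0.0688) or stomach replicate 1 (-2.43, adjusted p = 0.0629). Phgr1, a small protein of gut epithelium, read 7.86 and 7.34 in stomach and 0.11 and -0.14 in skin. It was at least 79.5-fold higher in stomach, and large intestine reached 8.75. Lypd8, a secreted protein of the intestinal surface, read 6.20 and 6.11 against -0.03 and 0.11, at least 22.5-fold higher in stomach, with Cy3 at 54000 and 73900 against 65.0 and 64.7. Sptssb, a subunit of the enzyme that starts sphingolipid synthesis, read 6.29 and 6.45 against -0.23 and 0.29. Ada, adenosine deaminase, read 3.16 and 3.65 against -1.71 and -1.53 (-5.02 ± 0.22). Of the 15 genes named for a large difference in favour of stomach, small or large intestine was the next highest tissue in 8.

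The remaining lists gave few calls in number, and most held few tested genes. Calls made up 33.3% of the sebaceous genes in each direction. They made up 20% in each direction for adipocytes and for melanocytes and Schwann cells. Of the smooth muscle genes 33.3% were called higher in stomach. The shares over all probes were 9.78% higher in skin and 9.61% higher in stomach. Of 27 immune cell genes 4 (14.8%) were called higher in skin and 1 (3.7%) in stomach, with Il1r2, the decoy receptor of interleukin 1, widest in skin (4.96 and 4.75 against 3.21 and 3.30, 1.60 ± 0.35, but 1.18 on the processed signals and 0.81 with slide as a fixed block, below the call). Under median centring none of the 27 was called higher in skin. Mlph, a carrier of pigment and other granules, was higher in stomach (0.22 and 0.46 against 3.0 and 2.87). Of the 3 sebaceous genes, Elovl5, which lengthens fatty acids, was higher in skin by 1.52 and Mogat1, an acyltransferase, higher in stomach by 3.63. Among 5 adipocyte genes Fcor was higher in skin (1.17) and Agpat2 in stomach (-1.64), with the call of Fcor lost under median centring (0.81), by Cy3 alone (1.09, adjusted p = 0.124) and without skin replicate 2 or stomach replicate 1. Csrp1 (-2.34) and Lmod1 (-1.03) of 6 smooth muscle genes were higher in stomach, and the median of the list was -0.81. Des of the same list was called higher in skin with slide as a fixed (1.36, adjusted p = 0.000479) or random block (1.1, adjusted p = 0.00302). In these 2 fits the list had 1 call each way, with medians of -0.14 and -0.47. The call of Lmod1 was lost in 9 of the alternatives run. None of 7 pancreas and liver genes was called.

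**Figure D5:**
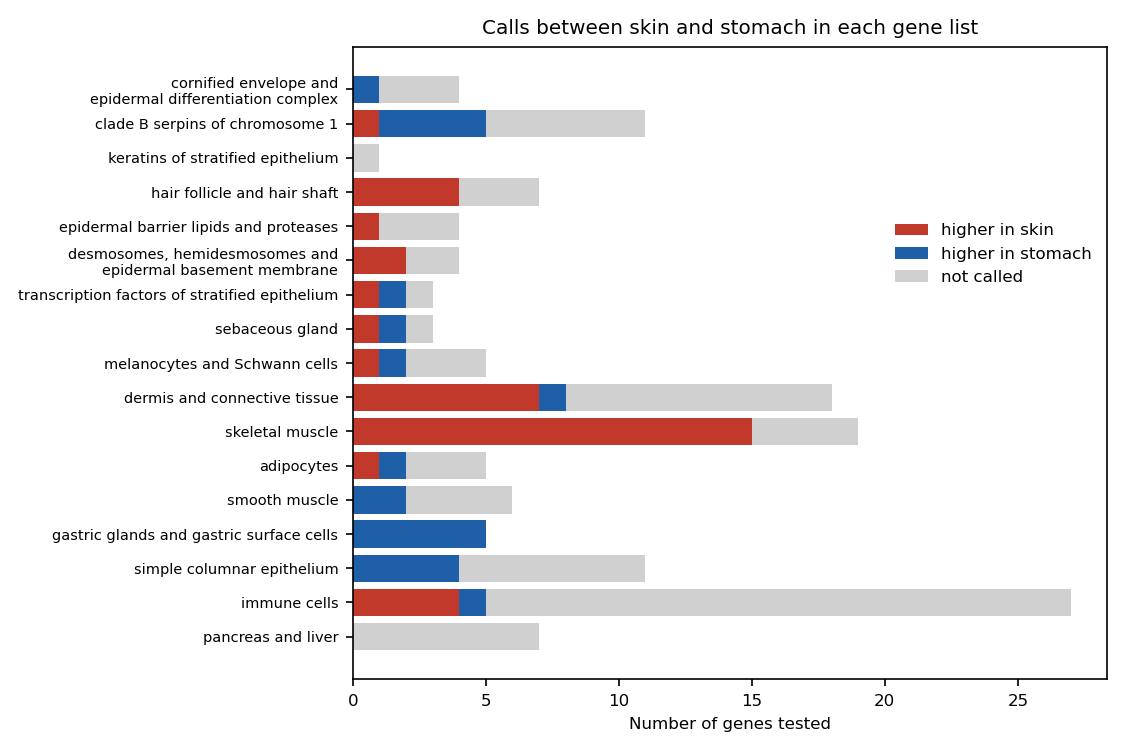
Number of tested genes of each of 17 lists called higher in skin (red), called higher in stomach (blue) or not called (grey). Skeletal muscle has 15 of 19 genes higher in skin, and the gastric list 5 of 5 higher in stomach.

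Wide differences were also found at unnamed probes. Probe Z00028697-1 read 10.46 and 10.30 in skin and 1.04 and 1.72 in stomach, a difference of 9.0 ± 0.24, and the mean of the next tissue, kidney, was 0.36. In the other direction probe Z00000953-1 read -4.26 and -3.53 in skin and 4.81 and 4.92 in stomach, with a mean of 3.4 in bone, the next tissue, and Z00037322-1 read -0.10 and 0.03 against 8.20 and 8.05 with 0.16 in bladder, the next tissue. In skin the latter was not well above background. Their genes could not be named from the tables on hand.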

How the data were processed

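Spot intensities of both channels, local backgrounds and outlier flags were deposited for 30 arrays as the scanner software of the authors' platform wrote them, not yet normalised. The authors also deposited a table of log10 values for 25030 probes, whose further normalisation is not given in the sources used here. It served as an alternative and fixed which probes were tested.

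Intensities were corrected with normexp (offset 50), loess-normalised within arrays and expressed as log2(Cy3/Cy5) with limma 3.58.1 in R 4.3.3. Control and outlier spots were left out, and spots of a probe were averaged. A probe was kept if Cy3 was well above background in both replicates of 1 tissue or more (21019 probes). The fit had 1 coefficient for each of the 15 tissues, 15 residual degrees of freedom, and p-values adjusted by Benjamini-Hochberg over all kept probes. The arrays of bone and fat may not be separate animals by the series text, and they add to the residual error. Only 2 arrays per tissue limit the precision. The steps were tested on simulated data.

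Symbols came from the study's probe lists, updated through the RefSeq gene table: of 5049 tested probes 3167 had a current symbol, 1535 a synonym and 347 neither. Named were the 15 genes with the largest differences in each direction, the 15 leading genes of the shared and of the skin only sets, and the members of 17 gene lists. A gene with several probes was represented by the brightest. Members and lists were chosen with earlier results of these data known. Replicate numbers did not pair the arrays (r = -0.023 between deviations from group means).

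Alternatives were another background offset, normalisation, channel, filter, slide, scan day or replicate block, threshold, the processed signals, the value table, and the fit without each array. Unused sample columns numbered 0. Some measured genes are not reported here.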

Additional observations from a re-analysis of the deposited data

Results flagged for a closer look

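Another 13618 probes with Cy3 above background were on the arrays but not in the authors' value table, and no comparison of the report used them. Of these, 1943 (14.3%) differed between skin and stomach by the same rule, 1055 higher in skin and 888 higher in stomach. Enriched in both organs were 76, and 174 were of skin only. A symbol was on hand for 253 of the 13618 probes.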

How the results depend on the processing

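Median centring in place of loess gave 1162 probes higher in skin than stomach, 450 enriched in skin and 197 of skin only, the last all among the 390. The processed signals gave 1247 probes enriched in skin, 1296 in stomach, 394 shared and 634 of skin only, and the value table gave 1196, 378 and 608 for skin, shared and skin only, with 216 of the 221 shared probes kept in both. A filter on 8 tissues left 146 shared probes. A threshold of log2 2 called 1543 probes (718 higher in skin, 825 in stomach) and no minimum called 6428 (3386 and 3042). Defining shared probes instead by all 4 arrays above every array of the 13 tissues gave 139, of which 80 were among the 221. Defining skin only by both skin arrays above every other array gave 190, of which 154 were among the 390. The correlation of skin with stomach was 0.75 under median centring and 0.86 by Cy3 alone, alternatives chosen after seeing the data. Reversed were Sdr16c6 (-0.03) and Serpinb12 (0.15), both on the processed signals and in the value table, and Teddm3 by Cy3 alone (-1.84). The cause was not tested. Leaving out 1 array gave 3310 to 3840 called probes (1590 to 1980 higher in skin, 1701 to 1860 in stomach), 781 to 809 enriched in skin, 821 to 836 in stomach, 214 to 224 shared and 362 to 422 of skin only. With the replicate number as a block, 4109 probes were called (2076 and 2033), 221 were shared and 391 of skin only, and the same number of named genes, 95, was called. Slide as a fixed block could not be fitted for the comparisons with the 13 tissues. Of 190 named genes 95 were called. Over the alternatives that refit a gene (at most 18, other thresholds not among them), 65 of these kept the call wherever they were tested, 47 of them also under the filter on 8 tissues. With 1 array left out, the spread of the lone array was taken from the other tissues. Probes near background in both organs have ratios near 0 and were not resolved.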
